A study of Mus musculus with 4 samples.

Results

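The regions described here are 415 of the 3812 intervals of 201 bp that the authors listed as differentially accessible between control and MCD-treated macrophages. They were chosen by 3 criteria. The authors' mean normalized reads were lower after MCD than in control, every transcription start site (TSS) of a transcript with an Entrez identifier in GENCODE M21 was more than 3 kb away, and the GRCm38 sequence held the PU box GAGGAA on neither strand. Of 1022 intervals that lost reads, 866 were distal in this sense, and the remaining 451 of these held a PU box. Accessibility was measured by ATAC-seq, in which the Tn5 transposase cuts open chromatin and more reads stand for a more open site. The cells were RAW macrophages, a mouse line transformed by a leukemia virus, kept in DMEM with fetal calf serum. The control samples (n = 2) were untreated, and the MCD samples (n = 2) received 5 mM MCD, methyl-β-cyclodextrin, a ring of glucose units that extracts cholesterol from the plasma membrane, for 1 hr. All 4 samples come from the same single line, so none of the values speaks for primary macrophages.

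The table gives the authors' mean per condition and no value per sample. No spread between replicates, no depth per library and no test across samples could therefore be computed, and each pair of values below is an authors' mean in control and an authors' mean after MCD. The members were selected on the sign of the difference of these means, which is given as a description. The 95% Wilson intervals given for shares cover counting over intervals alone, and intervals are not replicates. The cell type could not be checked by expression. Of 14 genes that define macrophages, Lyz2 (lysozyme) and Adgre1 (the surface protein F4/80) each had 1 of these intervals assigned to them. This is 14.3% of the list, against 1.64% of all annotated genes. Gained intervals were assigned to 3 of the 14 genes and a distal lost interval with a PU box to 1. These counts are no check of the cell type.

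Macrophage enhancers are kept open by a small set of lineage factors acting together. PU.1, an ETS family protein encoded by Spi1, recognizes a purine-rich sequence around the core GGAA and is needed for macrophage development. C/EBP, RUNX, MEF2, IRF and MITF/TFE factors bind near it in various combinations, whereas AP-1 (Jun and Fos) and NF-κB carry stimulus-dependent signals. The PU box is one form of the ETS site, so an interval without it may still hold other ETS forms or sites of partner factors.

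The intervals held a form of the ETS core more often than their surroundings. Of all 6-base words, each counted with its reverse complement, GGAAGT had the largest excess over windows 2 kb to each side. It is called the extended ETS core below, and it was picked after these counts were seen. The 8 intervals that hold it and had the lowest differences of MCD minus control on the log2 scale are shown over 40 bases of the strand that carries the motif, with the extended ETS core in capitals. Each is named by its nearest gene.
Cdkal1, chr13:29723332-29723371, plus strand: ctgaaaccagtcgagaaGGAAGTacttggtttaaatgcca
Aox4, chr1:58244597-58244636, minus strand: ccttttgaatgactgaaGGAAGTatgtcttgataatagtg
Cpeb2, chr5:42969994-42970033, minus strand: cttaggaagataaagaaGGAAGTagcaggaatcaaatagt
Ube2u, chr4:100347924-100347963, minus strand: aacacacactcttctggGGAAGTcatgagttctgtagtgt
Tmem135, chr7:89309416-89309455, plus strand: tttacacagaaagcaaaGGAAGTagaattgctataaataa
Ctla4, chr1:60824331-60824370, plus strand: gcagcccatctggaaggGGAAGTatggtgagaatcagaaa
Trim32, chr4:65545785-65545824, plus strand: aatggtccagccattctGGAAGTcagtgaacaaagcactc
Trp53i11, chr2:93163701-93163740, plus strand: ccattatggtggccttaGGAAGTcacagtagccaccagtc

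The bases before the core differ from those of a PU box in each of these sites, as the rule requires. For comparison, 2 of the 3 distal intervals with a PU box and the lowest log2 differences are shown with the PU box in capitals.
Lipa, chr19:34490599-34490638, minus strand: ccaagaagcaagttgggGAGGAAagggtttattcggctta
Itga4, chr2:79089986-79090025, minus strand: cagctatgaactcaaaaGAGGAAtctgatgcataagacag

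Some of the intervals held an A/T-rich site of the MEF2 family, MADS-box factors expressed in myeloid cells and muscle. The 6 with the lowest log2 differences are shown over 43 bases with the MEF2 form in capitals. The Ube2u, Tmem135 and Trim32 intervals appear in both sets. In the Tmem135 interval the extended ETS core and the MEF2 form fall within the same stretch.
Dpp10, chr1:123905986-123906028, minus strand: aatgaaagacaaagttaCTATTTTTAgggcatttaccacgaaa
Ube2u, chr4:100347968-100348010, plus strand: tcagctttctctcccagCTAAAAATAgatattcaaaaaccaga
Tmem135, chr7:89309429-89309471, plus strand: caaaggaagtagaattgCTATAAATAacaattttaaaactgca
Zfp36l1, chr12:79759732-79759774, plus strand: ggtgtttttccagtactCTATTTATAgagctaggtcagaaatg
Trim32, chr4:65545814-65545856, plus strand: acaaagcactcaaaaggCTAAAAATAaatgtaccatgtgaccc
Cdc73, chr1:142270402-142270444, plus strand: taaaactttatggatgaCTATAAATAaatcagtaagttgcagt

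These intervals were open in control and were partly closed after MCD. The authors' mean in control ran from 27.6 to 475 normalized reads, with a median of 108 and quartiles of 76.0 and 159. After MCD it ran from 4.94 to 303, with a median of 53.9 and quartiles of 34.4 and 89.0. The difference of MCD minus control on the log2 scale had a median of -0.995, quartiles of -1.22 and -0.81, and a range from -2.73 to -0.49. The members thus differed in how much of their signal was left after MCD. A difference of -1 or less, at least a 2-fold loss, was seen in 203 of the 415 members (48.9%), against 12.5% of all 3812 intervals of the table, a share that cannot be read as a result because the rule used the same difference. A difference of -2 or less was seen in 6 members (1.45%), near the 1.47% of all 1022 lost intervals. The distal lost intervals with a PU box had a median of 114 in control, a median of 57.4 after MCD and a median difference of -0.97, and 208 of them (46.1%) reached -1. The medians of the loss with and without a PU box thus lay close together, and no test of the difference could be made. Distal gained intervals had a median of 27.8 in control and 76.4 after MCD, so their control level was lower than that of the lost intervals.

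**Figure D1:**
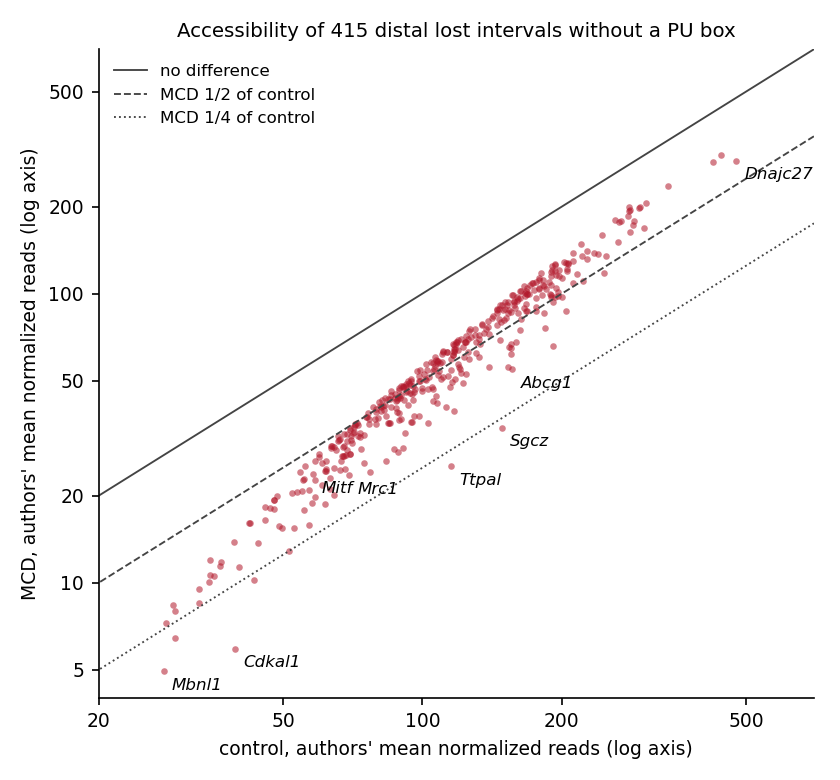
Each point is 1 of the 415 intervals, with the authors' mean normalized reads in control on the x axis and after MCD on the y axis, both logarithmic, and lines for no difference and for MCD at 1/2 and 1/4 of control. The points lie below the line of no difference, as the rule requires, and around the line for 1/2, with Cdkal1 (39.3 to 5.91) and Mbnl1 (27.6 to 4.94) farthest below it.

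At the edges of the rule, the smallest losses were 280 to 199 reads near Rapgef2 (difference -0.49) and 338 to 236 near Fbxo33 (difference -0.52). The smallest gains among distal intervals without a PU box were 184 to 264 near Mrpl33 and 186 to 267 near Atg13, each with a difference of 0.52. No distal interval without a PU box lay between these values. The members closest to a TSS were 3079 bp from S1pr2 and 3094 bp from Cst7, and the lost intervals without a PU box that fell just short of the distance were 2978 bp from Slco4a1 and 2937 bp from Ttc7.

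The 10 members with the largest loss on the log2 scale lay near genes of unrelated roles. The largest was in an intron of Cdkal1, a tRNA-modifying enzyme, at chr13:29723281-29723481, where the authors' mean was 39.3 in control and 5.91 after MCD (difference -2.73). The next, 10601 bp downstream of the TSS of Mbnl1, a splicing regulator, held 27.6 and 4.94 (difference -2.48). Both had control means below the first quartile of the members, so few reads stand behind their differences. Larger control means were seen in an exon of Ttpal, a member of the tocopherol transfer protein family, with 115 and 25.4 (difference -2.19). They were also seen in an intron of Sgcz, a sarcoglycan, with 148 and 34.4 (difference -2.11). At these sites MCD left 22.0% and 23.2% of the control signal. The others among the 10 were assigned to Cerkl (-2.18), 1700003I22Rik (-2.08), Dpp10 (-1.997), Itga4 (-1.95), Tmem38b (-1.94) and 0610039K10Rik (-1.87). All of these also had control means below the first quartile, from 27.9 (Tmem38b) to 51.5 (Dpp10), so the same limit holds for them. The Cerkl interval at chr2:79306346-79306546 lies inside an intron of Itga4, which encodes the α4 integrin. Nearest TSS and host gene thus differ at this site.

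At the other end, the 5 members with the highest control means lost less of their signal. They held 475 and 289 reads near Dnajc27, 442 and 303 near Plod2, 424 and 286 near Gdf6, 338 and 236 near Fbxo33, and 303 and 206 near Irx6. Their control means exceed the 3rd quartile of the members by a wide margin. Only intervals that the authors called as differentially accessible are included. How control level and loss go together over all open sites therefore cannot be read from them. Of the 415 members, 386 (93.0%) had a control mean of at least 50 reads. The median difference over these was -0.96.

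ETS forms other than the PU box were common. The extended ETS core GGAAGT was present, on either strand, in 156 members (37.6%, 95% Wilson interval 33.1% to 42.3%). It was present in 9.94% of 41897 windows of the same length on a regular grid of 50 kb over the genome that, like the members, hold no PU box. In windows 2 kb to each side of the members without a PU box it was present in 9.76%, and in distal gained intervals without one in 20.6%. The interval of the members' share overlaps none of these 3 values. The form was picked on these same members, for its excess over the windows 2 kb to each side. Its gaps to all 3 sets are therefore descriptions only. In the distal lost intervals with a PU box the form was present in 55.9%, but a PU box followed by GT contains it, and counted outside a PU box it was present in 34.1% (29.9% to 38.6%), a range that overlaps that of the members. The form was present more than once in 36 members.

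The core AGGAA with any base but G before it was found in 273 members (65.8%), against 44.5% of grid windows without a PU box. GGGGAA, which differs from the PU box by 1 base, was found in 100 members (24.1%), against 12.4%. CGGAAG, preferred by Ets1, Gabpa and Elf1, was rare, in 20 members (4.82%) and 2.03% of all grid windows. These forms overlap with the extended ETS core, since the same GGAA can belong to several. Together, 326 members (78.6%) held at least 1 of the 4 forms and 89 held none. The same was true of 86.0% of the distal lost intervals with a PU box, or 79.6% where an extended ETS core inside a PU box is not counted, 68.5% of distal gained intervals without one and 54.7% of grid windows without one. An ETS-like form other than the PU box was thus found in most members, but also in more than 1 in 2 windows of the genome.

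The bases in front of the extended ETS core showed where these sites depart from a PU box. Among 201 sites in the members, 96 (47.8%) had an A in front that was not itself preceded by G, against 30.1% of 6192 sites in grid windows. Another 38 (18.9%) had AG in front and 29 (14.4%) had GG, against 9.80% and 5.70%. A C or T stood in front of 24 sites (11.9%), against 34.1% in grid windows. A purine before the core was thus the more frequent state in the members, but also in grid windows. G followed by A was absent by the rule and made up 9.90% of sites in grid windows, so these shares are not directly comparable. Among 336 sites in distal lost intervals with a PU box, 45.2% had GA in front. Another 25.9% had an A without that G, and 8.33% had a C or T. A low share of C or T was therefore not particular to the members. Both members assigned to Mitf, a factor of lysosomal and osteoclast genes, held these forms. The one 9286 bp upstream of its TSS, at chr6:97797566-97797766 on the plus strand, is shown whole with its ETS forms in capitals, because it holds 3 copies of the core, 2 of them extended and in opposite orientations.
Mitf: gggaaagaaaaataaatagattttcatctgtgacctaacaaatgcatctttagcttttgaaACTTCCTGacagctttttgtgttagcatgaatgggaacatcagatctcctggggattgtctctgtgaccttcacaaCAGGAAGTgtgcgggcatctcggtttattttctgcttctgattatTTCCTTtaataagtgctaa

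This interval had 58.0 reads in control and 23.8 after MCD (difference -1.28). An interval 151314 bp downstream of the TSS of Maf, a bZIP factor of resident macrophages, at chr8:115555582-115555782 on the plus strand, holds a run in which 2 cores follow each other, and is shown in the same way.
Maf: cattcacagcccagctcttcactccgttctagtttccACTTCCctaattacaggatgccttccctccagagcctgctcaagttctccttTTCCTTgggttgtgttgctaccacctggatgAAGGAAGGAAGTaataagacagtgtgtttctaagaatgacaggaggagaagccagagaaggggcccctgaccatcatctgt

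Its authors' means were 121 and 53.3 (difference -1.18). Having the extended ETS core did not go with a larger loss. The 156 members that held it had a median difference of -0.94 and the 259 without it had -1.02, with overlapping quartiles.

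The share of members with a MEF2 form was above that of every set compared. CTAAAAATA, CTATTTTTA, CTATTTATA or CTATAAATA was present in 45 members (10.8%, 8.20% to 14.2%), in 23 distal lost intervals with a PU box (5.10%, 3.42% to 7.54%), in 2.13% of distal gained intervals and in 1.64% of all grid windows. The intervals of the members and of the lost intervals with a PU box do not overlap, but this is a statement on counting and not on replicates. The MEF2 forms are A/T-rich, and the members had a median GC content of 46.3% against 47.3% in the lost intervals with a PU box and 41.8% in grid windows. Among regions of 40 to 50% GC the shares were 11.0% of members, 5.44% of lost intervals with a PU box, 2.56% of distal gained intervals and 0.933% of grid windows. The order was therefore the same within that range of base composition. Of the 45 members, 21 also held the extended ETS core and 13 held no ETS-like form at all. A site that reads as MEF2 on both strands is counted on each.

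The MEF2 members spanned the range of losses, with a median difference of -1.02 against -0.99 in the other members. The Dpp10 interval at chr1:123905910-123906110, in an intron of a dipeptidyl peptidase-like gene, had 51.5 reads in control and 12.9 after MCD. It is shown on the plus strand with its RUNX form and its MEF2 form, which reads on both strands, in capitals, because it holds no ETS-like form.
Dpp10: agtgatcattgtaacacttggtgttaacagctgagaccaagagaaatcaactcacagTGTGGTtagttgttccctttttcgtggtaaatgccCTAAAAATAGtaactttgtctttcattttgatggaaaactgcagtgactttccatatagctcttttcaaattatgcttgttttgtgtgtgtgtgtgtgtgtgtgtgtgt

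The interval in an intron of Abcg1, a cholesterol efflux transporter, at chr17:31075545-31075745 on the plus strand, holds a single MEF2 form and likewise no ETS-like form.
Abcg1: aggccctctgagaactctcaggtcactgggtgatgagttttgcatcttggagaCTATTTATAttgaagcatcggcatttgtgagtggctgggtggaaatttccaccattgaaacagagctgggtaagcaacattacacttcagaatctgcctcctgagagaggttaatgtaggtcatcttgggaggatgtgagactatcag

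Its authors' means were 156 in control and 54.8 after MCD (difference -1.51), so that 35.1% of the control signal was left. Both members assigned to Zfp36l1, an RNA-binding protein of mRNA decay, held MEF2 forms. They had 88.7 and 28.3 reads in an intron of Rad51b and 116 and 49.5 reads in an intergenic stretch. MEF2 forms were also found in the members assigned to Klf4, Pip5k1b, Inpp5a and Osbpl11.

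Sites of the other lineage factors were present at shares close to those of the lost intervals with a PU box. RUNX forms (TGTGGT or TGCGGT) were found in 118 members (28.4%), against 30.4% of lost intervals with a PU box, 23.8% of distal gained intervals and 14.8% of grid windows. The C/EBP form TTGCNNAA was found in 65 members (15.7%), against 15.1%, 11.6% and 9.71% in the same order. The M-box of MITF and TFE factors (TCACGTG or TCATGTG) was found in 38 members (9.16%), against 8.43%, 7.74% and 5.05%. Lost intervals with and without a PU box did not separate by these 3 forms, whose Wilson intervals overlap. The ETS-IRF composite GGAANNGAA, to which PU.1 binds with IRF4 or IRF8, was found in 48 members (11.6%) and in 19.1% of lost intervals with a PU box, and the Wilson intervals of these shares do not overlap. A PU box is one way to supply the GGAA of this composite. Among regions that, like the members, hold no PU box, the composite was found in 4.91% of distal gained intervals and 5.92% of grid windows. The IRF form GAAANNGAA was found in 9.40% of members and 7.97% of grid windows, a small difference. The nuclear receptor hexamer AGGTCA was found in 16.1% of members and 11.1% of lost intervals with a PU box, with overlapping Wilson intervals.

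Sites of the stimulus-dependent factors were rare. The AP-1 form TGAGTCA was present in 11 members (2.65%), which is near the 3.05% of grid windows, and in 46.7% of distal gained intervals. The κB site was present in 12 members (2.89%), against 7.96% of distal gained intervals and 1.43% of grid windows. The CRE form TGACGTCA was present in 0 of 415 members, which allows a share of up to 0.917% (95% Wilson limit), against 1.48% of distal gained intervals. The EGR form GTGGGCG was present in 2 members and in 5.52% of distal gained intervals. For all 4 forms the members were thus closer to the genome than to the gained intervals. The E-box CAGGTG of E proteins and ZEB factors was found in 37 members (8.92%), below the 16.5% of windows 2 kb to each side. It was found in 11.7% of grid windows, 7.32% of distal lost intervals with a PU box and 8.13% of distal gained intervals. The low share was thus not particular to the members. The 37 members with the E-box had a median difference of -1.18, against -0.97 in the members without it. Of the 37, 75.7% reached -1, against 46.3% of the members without it, on the difference that the rule used. The median of -1.18 was the lowest among the 14 motifs plotted. It was singled out after its value was seen and was not tested. In all, 45 members (10.8%) held no ETS-like, RUNX, C/EBP, MEF2 or M-box form.

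**Figure D2:**
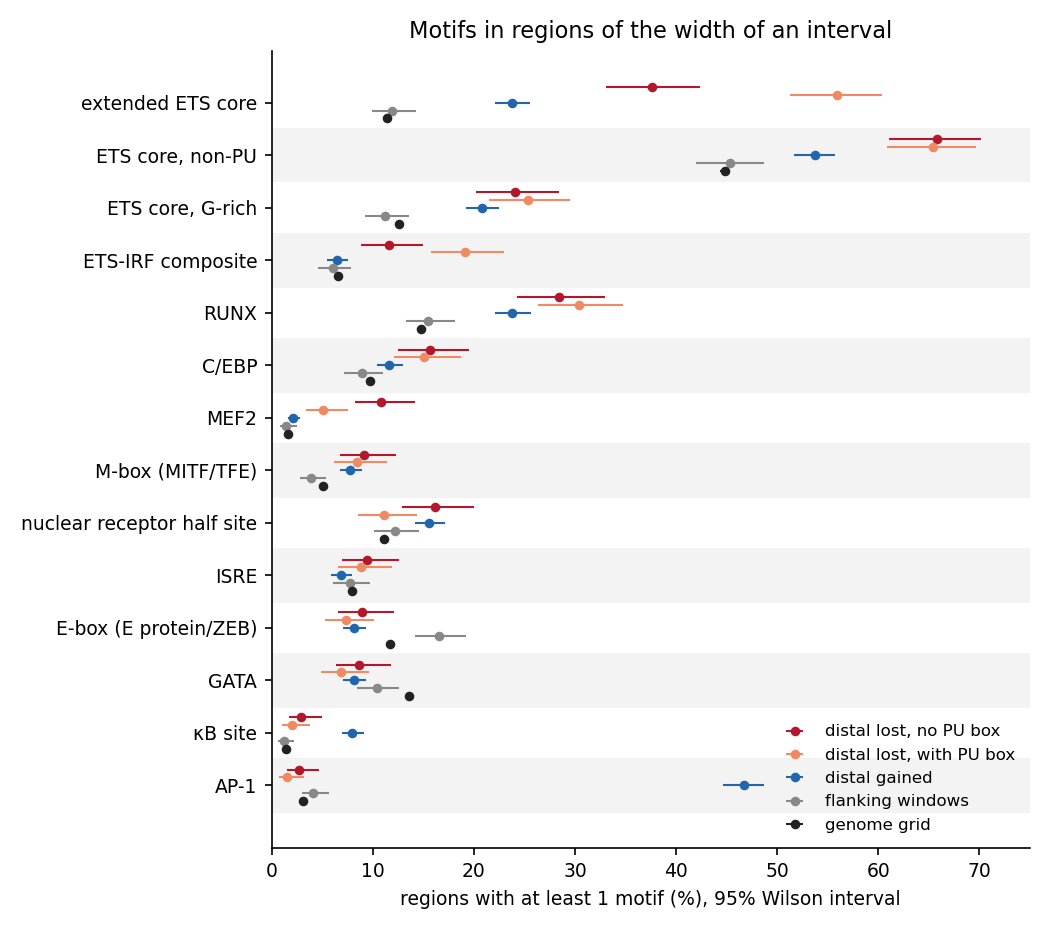
Points give the percentage of regions with at least 1 motif on either strand and bars the 95% Wilson interval, for the 415 distal lost intervals without a PU box, 451 with one, 2300 distal gained intervals, windows 2 kb to each side and windows on a genome grid. The ETS core labelled non-PU has A, C or T in front of the core and the G-rich one differs from a PU box by 1 base. The extended ETS core (37.6%) and MEF2 (10.8%) are well above the grid in the members, and AP-1 (2.65%) is near it.

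The motifs were concentrated at the centre of the intervals. The share of members with the centre of an extended ETS core in a 25-bp bin averaged 6.93% over the central 100 bp and 1.69% from 500 to 1000 bp away. For MEF2 the values were 1.75% and 0.199%, for RUNX 4.58% and 2.39%, for C/EBP 2.41% and 1.16%, and for the M-box 1.63% and 0.620%. The AP-1 form showed no such concentration, with 0.542% and 0.482%. The PU box itself is absent inside the intervals by the rule, but it averaged 5.09% per bin from 100 to 200 bp from the centre, against 2.45% farther out. A PU box lay within 100 bp outside the interval in 140 members (33.7%). For scale, windows of 201 bp held a PU box in 18.1% of cases on the genome grid and in 19.8% at 2 kb to each side. The label without a PU box therefore holds for the 201 bp of the table and not for the surrounding stretch. In the 275 members that have none there either, the extended ETS core was present in 38.2% and MEF2 in 11.3%, much as in all members.

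**Figure D3:**
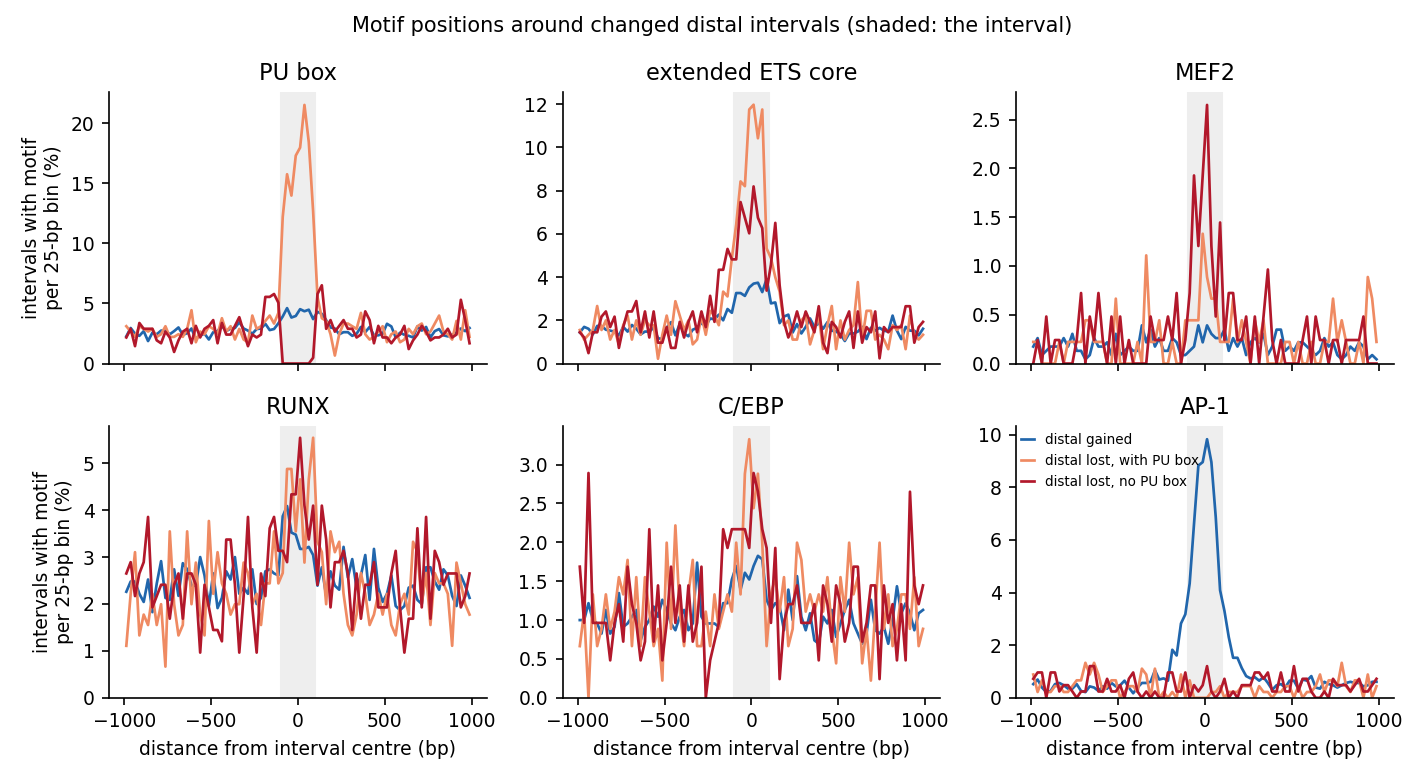
Each panel gives, for 1 motif, the percentage of intervals with the centre of a motif in each 25-bp bin up to 1000 bp from the interval's centre, for distal lost intervals without and with a PU box and for distal gained intervals. Shading marks the 201-bp interval. In the members the extended ETS core and MEF2 peak at the centre (averages of 6.93% and 1.75% per bin), the PU box is absent inside and raised just outside (5.09%), and AP-1 peaks in gained intervals alone among the sets plotted.

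Members were spread over 20 chromosomes, from 4 on the X chromosome to 50 on chromosome 2. They lay in introns (200), between genes (200) and in exons (15), with 193 upstream and 222 downstream of the nearest TSS. The distance to it had a median of 21407 bp, against 24436 bp for lost intervals with a PU box and 19206 bp for distal gained intervals, and 65 members were over 100 kb away. Within 50 kb, 180 members (43.4%) had another changed interval. Of the 308 neighbour relations counted, 236 (76.6%) were with lost intervals, which make up 26.8% of the table. A pair of members counts from both ends here and a gained neighbour from the member's end only, so these shares are not directly comparable. Counted per member, 138 (33.3%) had a lost interval within 50 kb. Another member lay within 50 kb of 83 members and a lost interval with a PU box of 65, so that the intervals with and without the box partly shared their neighbourhoods. A gained interval lay within that distance of 59.

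By nearest TSS, the members were assigned to 366 genes, which are 1.64% of the 22384 annotated genes with an Entrez identifier. Of these, 327 genes had 1 member, 31 had 2 and 8 had 3 or more. A distal lost interval with a PU box was assigned to 61 of the 366 genes and a gained interval to 81. Nearest TSS is a rule of distance, and which gene an interval acts on was not measured.

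The 8 genes with 3 or more members differed in how closely these lay together. Sgcz had 4 members in introns, from 759550 to 767987 bp downstream of its TSS, with differences from -2.11 to -1.34, and 3 lost intervals with a PU box. The 4 of Fam98a had differences from -1.47 to -0.95, and 3 of them lay in an intron of Rasgrp3, a Ras activator of myeloid and B cells. Itga4 and Cerkl, neighbours on chromosome 2, had 3 each, and all 3 assigned to Cerkl lay in introns of Itga4. The Itga4 intervals in its introns had 32.9 and 8.49 reads at chr2:79285281-79285481 and 34.6 and 10.1 at chr2:79276430-79276630, and an upstream one had 196 and 98.1. Those assigned to Cerkl had 29.3 and 6.45, 39.3 and 13.9, and 82.3 and 40.9 reads, so that 4 of the 5 within Itga4 introns were below the first quartile of the members in control. Ctla4, whose product restrains T cells, had 3 upstream of its TSS, with differences from -1.64 to -1.06. Ipo11, an importin, had 3 (-1.79 to -1.04), Lrrc8d, a volume-regulated anion channel subunit, had 3 (-1.72 to -0.68), and Ripk2, the kinase of NOD signalling, had 3 from 512142 to 743321 bp upstream (-1.29 to -0.84). For Lrrc8d alone among these 8 a gained interval was also assigned.

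Gene lists of macrophage functions were compared by counts, with 52 of the 366 genes on any of them. Of 55 myeloid transcription factors and related regulators, 8 had members (14.5%, against 1.64% of all annotated genes), 12 in all. The median difference over the 12 was -1.0, against -0.995 over all members. Gained intervals were assigned to 24 of the 55. Gained intervals outnumber the members, and their share over all annotated genes was not computed. The counts of genes with gained intervals, for this and every other list, are therefore descriptions only. Among the genes with members, Mitf and Zeb2 had 3 gained intervals each, and Maf, Zfp36l1 and Klf4 had 2 each. Bcl6, Rxra and Zfp36l2 had none. For Maf the members held 90.0 and 36.9 reads at chr8:115597417-115597617 and 121 and 53.3 at the site printed above. Bcl6, a repressor of inflammatory genes, had 75.9 and 37.5 reads at one upstream site and 148 and 79.7 at another. Rxra, the partner of nuclear receptors such as LXR, had 80.8 and 40.9 in an intron. Klf4, a zinc finger factor of monocytes, had 189 and 98.9 far upstream. Zeb2, which maintains macrophage identity, had 151 and 82.1. Zfp36l2, a relative of Zfp36l1, had 124 and 68.0, and the second Mitf site, in an intron, had 127 and 70.7. The 12 sites kept between 31.9% and 55.6% of its control signal.

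Of 61 macrophage surface receptors, 5 had members (8.2%, against 1.64% of all annotated genes) and 10 had gained intervals. Mrc1, the mannose receptor, had an intronic site that fell from 69.6 to 23.6 reads (difference -1.56) and another with 126 and 75.7 (-0.74). The stronger loss was at chr2:14262205-14262405, shown on the plus strand with ETS and C/EBP forms in capitals, because sites of both factors meet in its first run of capitals.
Mrc1: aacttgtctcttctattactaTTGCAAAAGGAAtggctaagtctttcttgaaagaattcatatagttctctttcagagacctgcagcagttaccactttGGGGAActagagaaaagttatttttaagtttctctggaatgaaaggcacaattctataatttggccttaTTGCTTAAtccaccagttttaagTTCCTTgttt

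The other receptor sites lost less. Adgre1 had 168 and 86.9 reads, Cx3cr1, the fractalkine receptor, 92.0 and 48.7, Slamf7, a homotypic receptor, 161 and 95.7, and Cd300a, an inhibitory receptor, 190 and 120. The interval near Lyz2 had 176 and 86.9. The median difference over the list was -0.83.

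Cytokine receptors with a member were 4 of 49 genes on the list with JAK-STAT components (8.16%, against 1.64% of all annotated genes). Gained intervals were assigned to 12 of the 49. Il6st, the shared gp130 subunit, had 55.4 and 17.8 reads (difference -1.63), and Ifngr1, a subunit of the interferon-γ receptor, had 69.9 and 27.9 (-1.33). Il10ra, the ligand-binding subunit of the interleukin-10 receptor, had 114 and 47.7 (-1.26), and Ifnar2, of the type I interferon receptor, had 179 and 105 (-0.77). The Il10ra site lies 5186 bp upstream of its TSS at chr9:45274335-45274535. It is shown on the plus strand with RUNX, GGGGAA and C/EBP forms in capitals, because it holds 3 RUNX forms.
Il10ra: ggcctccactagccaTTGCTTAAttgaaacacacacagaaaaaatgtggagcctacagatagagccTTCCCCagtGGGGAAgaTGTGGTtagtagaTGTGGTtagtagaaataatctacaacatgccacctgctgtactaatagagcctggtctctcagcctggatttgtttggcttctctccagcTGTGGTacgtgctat

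Of 64 genes of sterol and lipid handling, 7 had members (10.9%, against 1.64% of all annotated genes). Beside Abcg1 these were Abca1, the other main cholesterol exporter, with 107 and 56.1 reads (difference -0.93) in an interval that holds 3 AGGAA forms, 1 GGGGAA and 1 extended ETS core. Lpcat1, an acyltransferase of phospholipids, had 63.6 and 29.6, Lrp5, a Wnt co-receptor, 69.9 and 34.3, and Gramd1a, a sterol transfer protein, 105 and 53.9. Osbpl11, an oxysterol-binding protein, had 166 and 100 and Lipa, the lysosomal acid lipase, 163 and 102. The Abcg1 site thus had the largest loss on this list. Gained intervals were assigned to 13 of the 64 genes. Among the 7 with a member, Abca1 alone had a gained interval assigned.

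Of 63 lysosome and vesicle genes, 5 had members (7.94%, against 1.64% of all annotated genes) and 8 had gained intervals. The differences were -1.18 for Vps13a, a lipid transfer protein, -1.13 for Ctsl, a cathepsin, -0.90 for Atp6v1e1 and -0.76 for Atp6v0d2, both subunits of the proton pump, and -0.83 for Psap, the precursor of saposins. Among 16 genes of the osteoclast programme, Car2, carbonic anhydrase 2, alone had a member (6.25%, 67.3 and 29.5 reads). Gained intervals were assigned to 9 of the 16 genes, and Car2 itself had 2 of them. Of 131 chromatin enzymes, 7 had members (5.34%) and 21 had gained intervals. Ehmt1, a histone H3 lysine 9 methyltransferase, had 35.5 and 10.6 reads and Kdm2a, a demethylase, 36.5 and 11.4, both low in control. Hdac9, a deacetylase, had intronic sites with 153 and 55.9 and with 68.4 and 27.6. Ep300, an acetyltransferase, had 66.0 and 31.2. The smaller losses on this list were at Arid5b, Ncoa3 and Kdm4a, with differences of -1.03, -0.75 and -0.67. The list's median difference was -1.19 over 8 members.

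**Figure D4:**
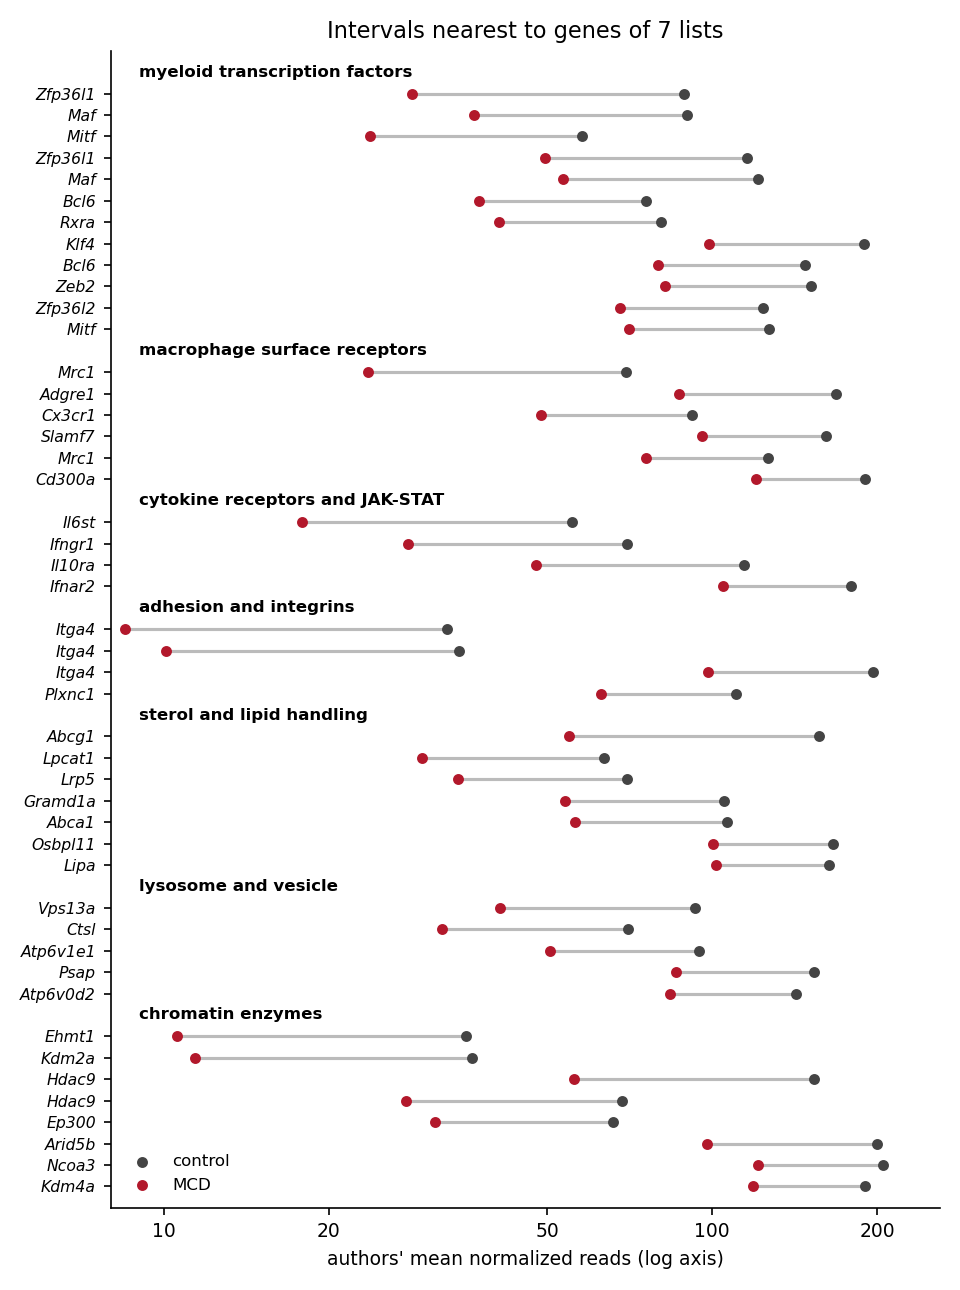
Each line joins the authors' mean normalized reads in control (dark) and after MCD (red) of 1 interval, on a logarithmic x axis, named by the nearest gene and grouped in 7 lists. The means after MCD are lower in every interval, as the rule requires, and the widest gaps are at Itga4 (32.9 to 8.49), Ehmt1 (35.5 to 10.6) and Itga4 again (34.6 to 10.1), all low in control.

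Of 40 genes of innate sensing, Ripk2 alone had members (2.50%, against 1.64% of all annotated genes). Of 41 adhesion genes, Itga4 and Plxnc1, a plexin (111 and 62.7 reads), had members (4.88%). Of 81 genes of phosphoinositide and calcium signalling, 6 had members (7.41%). Pik3c3, the class III phosphoinositide kinase of endosomes, had sites with 67.0 and 27.4 and with 190 and 97.4. Plcb4, Pik3c2a, Pip5k1b, Inpp5a and Prkch had differences from -1.17 to -0.71. Of 34 cell cycle and growth genes, 2 had members (5.88%). Mycn, a MYC family factor, had 90.8 and 29.2 reads (difference -1.63) and Ccnd1, cyclin D1, 89.6 and 43.7 (-1.04). Gained intervals were assigned to 6 of the 40, 14 of the 41, 24 of the 81 and 7 of the 34 genes of these lists. The lists were chosen with earlier results of these data known, and their shares were not tested against the 1.64%. With 1 to 12 members per list, no list is set apart here from the other members.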

How the data were processed

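Per the labels and the study's methods, duplicate samples were sequenced as paired ends, and alignment was by Bowtie2 against GRCm38, with Picard for duplicate reads, MACS for peaks (MACS2 in the methods, MACS3 3.0.0 in the submitters' processing notes) and DiffBind, through DESeq2 and edgeR, for the comparison. The normalization, any shift for the Tn5 offset and any pooling for peak calling are not given in the sources used here. The deposited values are the authors' log2 mean normalized reads per condition, turned here into reads. The authors' fold change, p-value and FDR columns were not used, so every interval was taken as listed, and the rest of the open genome was not analysed here.

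TSS were those of all GENCODE M21 transcripts with an Entrez identifier. Sequences were read from the RefSeq copy of GRCm38 with pysam 0.24.0 and searched on both strands for 25 motifs, the letters of which are in the text for those described. The search was tested on simulated sequences. Reference windows lay 2 kb to each side of members or every 50 kb. Shares carry 95% Wilson intervals (scipy 1.17.1). No test was run, since there are no values per sample.

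The members, motifs and gene lists were chosen with earlier results of these data known, and the extended ETS core after the 6-base words were counted. Named were the 10 largest losses, the 5 highest control means, genes with 3 or more members, list genes with a member (1 list is not reported here), and intervals at the edges of the rule. Others are named with the sequence or motif shown.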

Additional observations from a re-analysis of the deposited data

How the results depend on the processing

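Of 72 alternative values, 57 stayed within the spread used to compare them and 15 moved. The number of members was 275 without a PU box in 100 bp on each side as well, and 142 when AGGAA with any base before it was barred. It was 451 with the TSS of GENCODE basic transcripts (chosen after seeing the data), 458 and 301 at distances of 1 and 10 kb. The median difference was -0.86 with 10 reads added to each mean. Motif shares follow the length searched. From 50 bp before to 50 bp after the centre they were 23.6% for the extended ETS core, 42.2% for the other AGGAA forms, 6.99% for MEF2, 17.6% for RUNX and 8.19% for C/EBP. With 100 bp added on each side they were 57.6%, 84.3% for the other AGGAA forms, 43.6% for RUNX, 24.3% for C/EBP and 5.54% for AP-1. A changed interval lay within 10 kb of 18.1% of members and within 100 kb of 59.0%. With the TSS of all transcripts, 215 members kept their gene, and with those of protein-coding genes 376 did. Gene names thus depend on the annotation used. No paired analysis was possible because the table holds condition means and no values per replicate, and leaving out replicates or another scaling could not be run for the same reason. Depth is unknown, so small means such as 4.94 reads carry an error that cannot be stated.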
